A study of Mus musculus with 6 samples.

Results

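Molecular chaperones bind unfolded or partly folded proteins and help them reach or keep their native shape. The HSP70 chaperones work with J proteins, which bring them clients and stimulate their ATPase, and with nucleotide exchange factors such as BAG proteins. HSP90 acts later on signalling proteins, and the ring-shaped chaperonins enclose clients such as actin and tubulin. Heat shock factors are the transcription factors that switch on many of these genes through heat shock elements, and Hsf4 is the family member known for its part in lens fibre maturation and for its link to cataract when mutated. Genes of these families were followed in mouse lenses in which the gene of the homeodomain factor Prox1 was conditionally deleted.

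The set held 87 of the 41128 features listed for each library. Members were chosen by row name alone. They were the genes starting with Hspa, Hsp90, Dnaja, Dnajb, Dnajc, Cct, Bag or Hsf and the genes Hspd1, Hspe1, Hsph1 and Tcp1, without pseudogene names. The knockout group was 3 libraries of E13.5 lenses with the genotype Prox1 f/f MLR10Cre+, and the control group was 3 libraries of E13.5 wild type lenses, all given as strain C57Bl/6 in the labels. MLR10-Cre is a transgene driven by a modified alphaA-crystallin promoter that acts in lens epithelium and fibre cells. Each library was a pool of 30 lenses, labelled as a biological replicate. The wild type label names neither the floxed alleles nor the Cre transgene, and no group had only 1 of these, so effects of Prox1 loss, of Cre and of the floxed background cannot be told apart. Nothing in the labels says whether embryos of 1 litter entered several pools, and the tests below reflect only how far these pools differ from each other.

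The libraries held between 9082219 and 28391662 counts. Prox1 itself was lower in the knockout, at 695 ± 39.9 CPM against 1128 ± 179 CPM (SD, n = 3 each, edgeR adjusted p 0.00740), with no overlap between the groups. CPM here means counts scaled to a common library total that is adjusted by TMM. How many of the remaining Prox1 reads lie outside the deleted part was not tested. The Prox1 levels and all levels below are CPM scaled by TMM, unless RPKM is named. TMM is a factor that sets aside the most extreme genes when libraries are compared. Lens fibre markers fell in 8 of 8 tested genes, with a summed level of 18288 to 20587 CPM in the knockout and 85146 to 156482 CPM in the wild type. Markers of neural retina (1311 to 1888 against 548 to 831 CPM, 3 of 7 tested genes risen, Sox2 listed at 0 in every library), pigment cells (263 to 728 against 81.1 to 189.8 CPM, 5 of 6 risen) and periocular mesenchyme (732 to 3278 against 294 to 584 CPM, 2 of 7 risen) were higher in the knockout. Surface ectoderm markers rose in 4 of 5 genes, with sums that overlapped (24.7 to 110.4 against 17.2 to 25.7 CPM). Lens epithelium markers changed in both directions, 4 of 6 rising and 2 falling, while their sum overlapped between the groups (2892 to 3079 against 2865 to 3333 CPM). Erythroid markers overlapped in sum too (1317 to 2083 against 730.0 to 2318 CPM, 3 of 7 risen). So did markers of neurons (81.7 to 96.5 against 76.7 to 125.9 CPM, 0 risen and 1 fallen of 6 tested) and of vessel endothelium (343 to 456 against 217 to 395 CPM, 1 of 6 risen). Sums also overlapped for macrophages (49.8 to 68.7 against 25.8 to 55.9 CPM) and skeletal muscle (7.38 to 44.7 against 6.62 to 17.5 CPM), with 0 of 5 tested genes called in each. The part of these cell types in the results below was not tested. In pools of whole lenses, fewer cells of a type and less RNA per cell cannot be told apart.

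Most chaperone genes that differed were lower in the knockout, and by modest amounts. Of the 87 members, 73 had enough counts to be tested, and of these 32 fell, 2 rose and 39 were not called at an edgeR adjusted p of 0.05. That is 43.8% of tested members falling against 16.8% of all 14271 tested features, and 2.74% rising against 15.9%. In both directions together 46.6% of tested members and 32.6% of all tested features were called. Among features with a mean of at least 10 CPM 37.3% were called, so the same was counted there, where 48.4% of 64 members and 21.3% of all such features fell, and 3.13% and 16% rose. Knockout libraries were all below the wild type libraries for 41 tested members (56.2%) and all above them for 3. Among all tested features these shares were 25.7% below and 24.4% above, and 50.1% in both directions together. At a mean of 10 CPM or more the member counts were 39 below and 2 above of 64. Of all such features 31.7% were below and 22.7% above, together 54.5%. The median log2 change, knockout minus wild type, was -0.29 over the tested members and 0.04 over all tested features. Of the 32 that fell, 3 changed at least 2-fold, Hsf4, Dnajb2 and Dnajb1, and 14 changed less than 1.5-fold. DESeq2 called 33 members falling and 2 rising, and limma-voom 32 and 2.

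**Figure D1:**
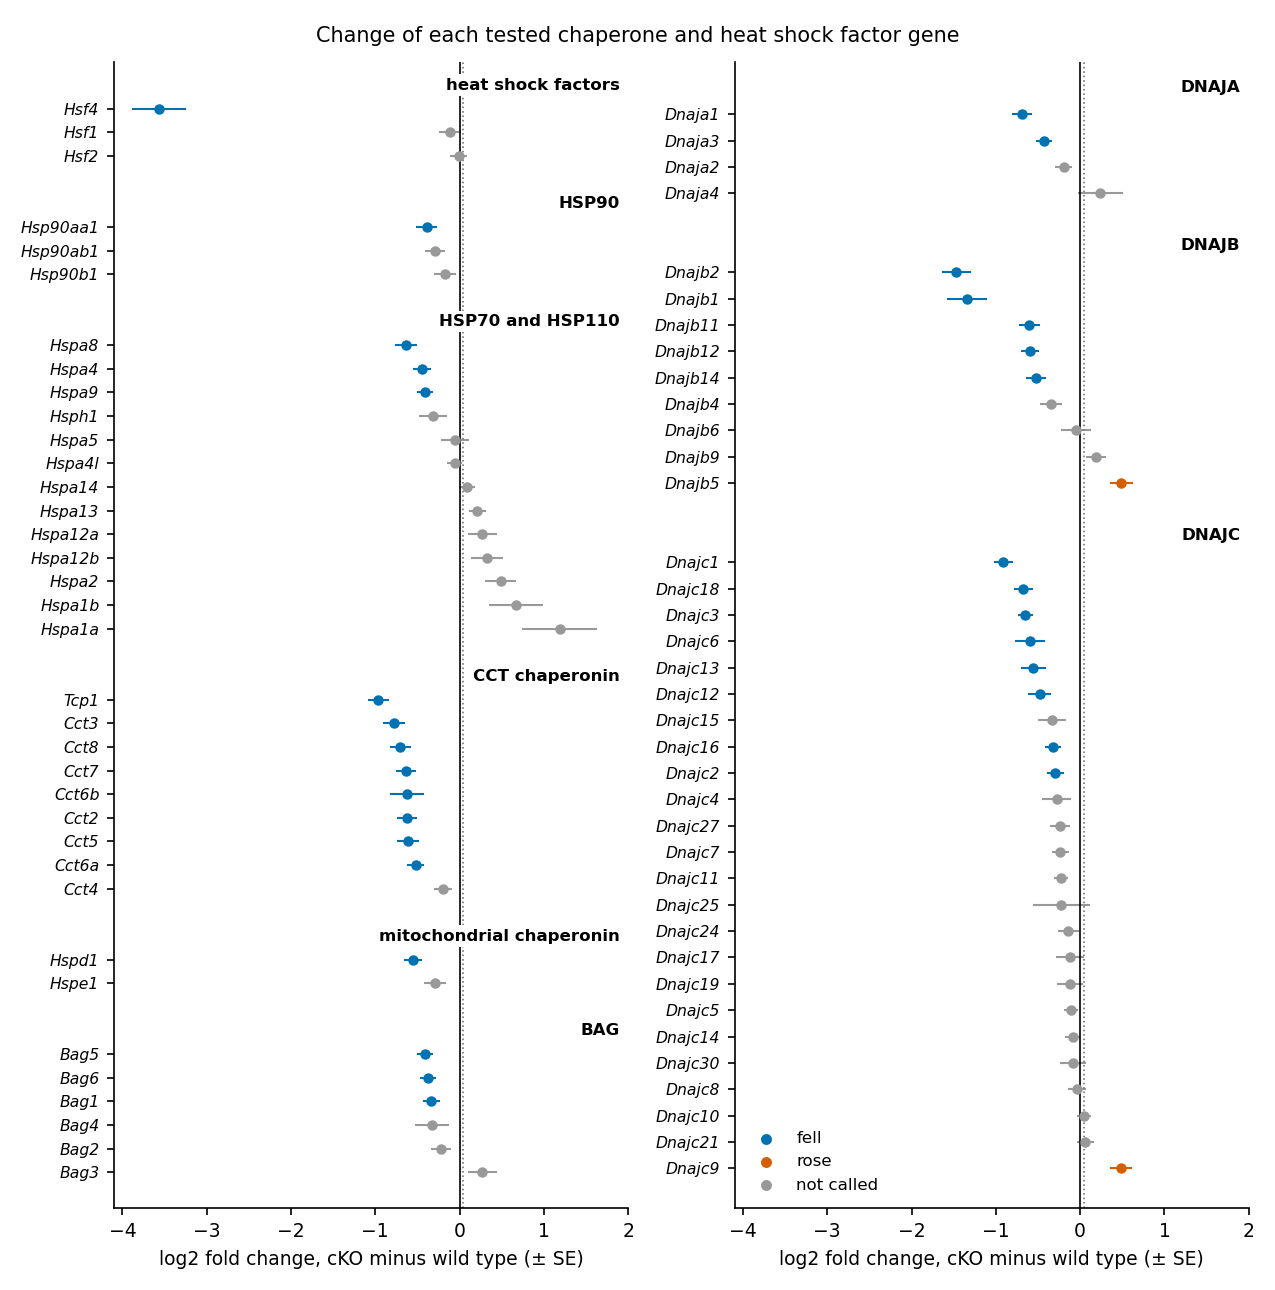
Log2 fold change (knockout minus wild type, points with SE bars, n = 3 libraries per group) of the 73 tested members by family, with a solid line at 0 and a dotted line at the median of all tested features. Hsf4 lies far to the left at -3.57, the cytosolic chaperonin genes form a block below 0, and the 2 genes that rose, Dnajb5 and Dnajc9, both lie at 0.49.

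The direction depends on how libraries are scaled. Crystallin transcripts took 2.83% to 3.14% of the counts in the knockout and 13.2% to 22.7% in the wild type. With total counts as the only scaling, the median of all tested features moved from 0.04 to 0.39, and 6 members fell while 13 rose, among all features 6.62% falling and 38.0% rising. The 6 that still fell were Hsf4, Dnajb2, Dnajb1, Tcp1, Dnajc1 and Cct3. Relative to the median of all features the members' median was -0.33 under both scalings, and 59 of 73 members lay below that median in each. Members took 1.203% to 1.47% of all counts in the knockout and 1.31% to 1.48% in the wild type, ranges that overlap. Of the counts outside crystallin genes they took 1.52%, 1.34% and 1.24% in knockout libraries 1, 2 and 3 and 1.71%, 1.75% and 1.69% in the wild type libraries, and here every knockout library was below every wild type library. All changes below are therefore relative to the bulk of other genes.

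Among the heat shock factor genes, Hsf4 had the largest decrease of the whole set, while Hsf1 and Hsf2 were not called. Hsf4 (ENSMUSG00000033249, GRCm38 chromosome 8, 105269801 to 105275845) measured 8.32, 11.02 and 14.1 CPM in knockout lenses against 75.6, 149 and 162 CPM in wild type lenses. The groups lay far apart, and wild type library 1 lay between the knockout and the other wild type libraries. Hsf4 fell 11.9-fold (log2 -3.57, SE 0.317, edgeR adjusted p 0.000195), and 62 of the 14271 tested features had a larger decrease. With 1 library left out its log2 change lay between -3.88 and -3.36.

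Hsf1, the main factor of the heat stress response, measured 49.0, 40.5 and 35.2 CPM in knockout lenses against 43.3, 43.4 and 49.1 CPM in wild type lenses (log2 -0.12, SE 0.132, edgeR adjusted p 0.522). Hsf2, which can form complexes with Hsf1, had 53.5, 47.3 and 43.2 CPM against 49.6, 47.7 and 48.0 CPM (log2 -0.01, SE 0.103, edgeR adjusted p 0.956). The groups overlapped for both, and both had positive log2 values under total count scaling (0.24 and 0.34). The other 4 row names of the family, Hsf2bp, Hsf3, Hsf5 and Hsfy2, had too few counts to be tested. Hsf5 had 15, 8 and 4 counts in knockout lenses against 6, 3 and 3 in wild type lenses, and Hsfy2 had 1 count in all.

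Per transcript length, the order of the factors differed between the groups. In the authors' RPKM values, which divide by gene lengths that the files do not list, Hsf4 was the highest of the 3 expressed factors in each wild type library, at 42.4, 71.4 and 77.2 RPKM. Hsf1 had 18.1 to 21.1 RPKM and Hsf2 had 15.3 to 18.7 RPKM there, ranges that overlap. In the knockout libraries Hsf4 was the lowest, at 5.69, 6.90 and 8.79 RPKM, beside 19.0 to 29.1 RPKM for Hsf1 and 18.03 to 24.5 RPKM for Hsf2. Hsf4 made up 51.6%, 68.1% and 68.4% of the summed RPKM of the 3 factors in wild type libraries 1, 2 and 3. In the knockout libraries it made up 9.59%, 14.1% and 19.2%, and these shares do not depend on the scaling of the libraries, though their size rests on those unlisted lengths.

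**Figure D2:**
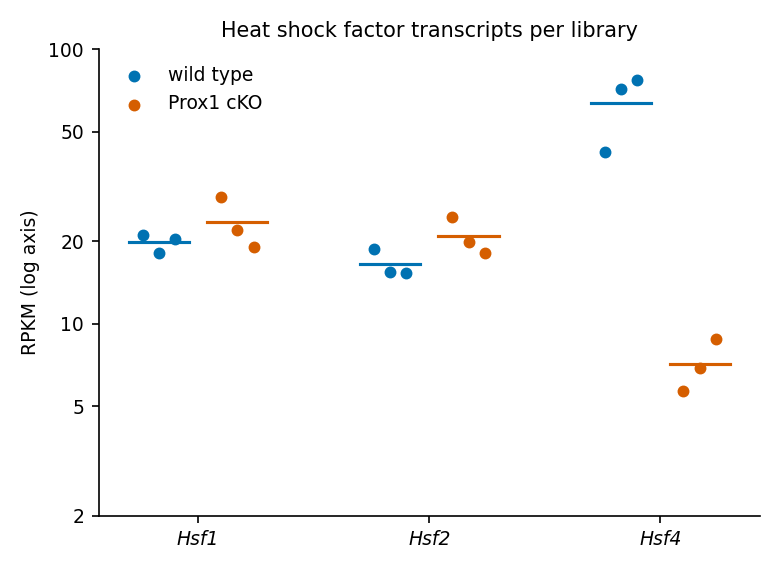
RPKM of Hsf1, Hsf2 and Hsf4 on a log axis, with 1 point per library and a line at the mean of the 3 libraries of each group. Hsf4 is above Hsf1 and Hsf2 in each wild type library (42.4 to 77.2) and below them in each knockout library (5.69 to 8.79).

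J proteins were the largest family, with 45 members, and contained the largest decreases after Hsf4. Of 37 tested, 15 fell (40.5%, beside 16.8% of all tested features), 2 rose (5.41%, beside 15.9%) and 20 were not called. Among features with a mean of at least 10 CPM 21.3% fell and 16% rose. The median log2 change of the tested J protein genes was -0.24. Dnajb2, a J protein of the cytosol and endoplasmic reticulum surface that is best known from neurons (ENSMUSG00000026203, GRCm38 chromosome 1, 75236406 to 75245692), measured 37.7, 34.4 and 34.8 CPM in knockout lenses against 72.2, 106 and 119 CPM in wild type lenses. The knockout libraries were tightly grouped, and wild type library 1 was again the lowest of its group. Dnajb2 fell 2.77-fold (log2 -1.47, SE 0.173, edgeR adjusted p 0.000617). Dnajb1, the stress-inducible partner of HSP70 (ENSMUSG00000005483, chromosome 8, 83608193 to 83612653), measured 63.5, 65.3 and 43.3 CPM in knockout lenses against 97.9, 159.9 and 179.8 CPM in wild type lenses, a 2.53-fold decrease (log2 -1.34, SE 0.236, edgeR adjusted p 0.00404).

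Both genes were also lower relative to their partner Hspa8, the constitutive cytosolic HSP70. The ratio of Dnajb2 counts to Hspa8 counts was 0.108, 0.108 and 0.135 in knockout lenses against 0.153, 0.201 and 0.267 in wild type lenses. For Dnajb1 the ratio was 0.181, 0.205 and 0.167 against 0.208, 0.303 and 0.406. The groups did not overlap in either ratio, though knockout library 2 and wild type library 1 nearly met for Dnajb1. Such ratios do not depend on library scaling, and with 3 against 3 libraries an exact permutation test could not go below a two-sided p of 0.1. Ratios were computed for 10 gene pairs picked after their values were seen, so groups without overlap are not a separate result. The groups overlapped in 3 of the 10 pairs, Dnajb1 to Dnajb2, Hsp90aa1 to Hsp90ab1 and Hsp90b1 to Hspa5.

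Other J protein genes that fell had smaller changes. Dnaja1, a farnesylated cytosolic partner of HSP70, measured 125, 111 and 104 CPM in knockout lenses against 158, 196 and 195 CPM in wild type lenses (1.61-fold, edgeR adjusted p 0.00362). Dnajc18 fell by 0.67 on the log2 scale, Dnajb12, a J protein of the endoplasmic reticulum membrane, by 0.59 and Dnajb14, its relative, by 0.52. Dnajc6, the auxilin that uncoats clathrin vesicles in neurons, fell by 0.60, and Dnajc13, which acts on endosomes, by 0.55. Dnajc13 showed a wide spread in the knockout, with 91.7, 125 and 139 CPM against 163, 182 and 176 CPM. The call of Dnajc13 was lost without wild type library 2 (0.0800) or 3 (0.0687), and that of Dnajc6 without any 1 of 5 libraries (up to 0.123), being kept only without wild type library 1. Several abundant J protein genes were not called, among them Dnaja2 (log2 -0.20), Dnajc5, the synaptic vesicle protein CSP (-0.11), Dnajc7 (-0.23) and Dnajc8 (-0.04).

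The 2 genes that rose in the whole set were J protein genes. Dnajc9, a histone chaperone, measured 97.2, 76.1 and 73.5 CPM in knockout lenses against 65.0, 53.7 and 57.9 CPM in wild type lenses (1.40-fold, log2 0.49, SE 0.12998, edgeR adjusted p 0.0225). Dnajb5 had 14.3, 13.8 and 13.0 CPM against 9.46, 10.8 and 9.04 CPM (1.40-fold, log2 0.49, SE 0.140, edgeR adjusted p 0.0291). Neither group overlapped for these genes, but the call of Dnajc9 was lost without wild type library 2 (0.109) or 3 (0.0867). The call of Dnajb5 was lost without any 1 of 5 libraries and kept only without knockout library 3, with edgeR adjusted p between 0.0411 and 0.131.

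The HSP70 genes were mixed, with Hspa8, Hspa4 and Hspa9 lower, the other members not called and the stress-inducible pair at very low levels. Of 13 tested members of the HSP70 and HSP110 families, 3 fell, 0 rose and 10 were not called, and the median log2 change was 0.09. The falling share of 23.1% was near the 16.8% of all tested features and the 21.3% of those with at least 10 CPM. None rose by the edgeR quasi-likelihood test, by which 2 had an unadjusted p under 0.05 and a positive change. Hspa8 measured 350.4, 319 and 259 CPM in knockout lenses against 471, 527 and 443 CPM in wild type lenses (1.55-fold lower, log2 -0.64, SE 0.135, edgeR adjusted p 0.00923). Hspa4, an HSP110-type exchange factor, fell by 0.45 (edgeR adjusted p 0.0132), and Hspa9, the mitochondrial HSP70, by 0.41 (edgeR adjusted p 0.0158). The call of Hspa4 was lost without wild type library 2 (0.0540), and that of Hspa9 without wild type library 2 (0.0646) or 3 (0.0603).

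Hspa1a and Hspa1b, the near-identical genes that heat and other stress switch on, had hardly any transcripts. Hspa1a measured 1.47, 1.84 and 2.02 CPM in knockout lenses against 1.16, 0.286 and 0.806 CPM in wild type lenses, from 50, 22 and 20 counts against 24, 5 and 14 counts. Every knockout library was above every wild type library, but the gene was not called (log2 1.19, SE 0.445, edgeR adjusted p 0.0703). It was called as rising under total count scaling (log2 1.51, edgeR adjusted p 0.0219) and without wild type library 1 (1.62, edgeR adjusted p 0.0344), and with 1 library left out its log2 change ranged from 0.79 to 1.62. Hspa1b was not called either (log2 0.67, edgeR adjusted p 0.139). Because the genes are close copies, the division of reads between them is uncertain, and reads of Hspa1a could not be told from those of an opposite-strand gene over 19.0% of its exon bases. Hsph1, the stress-inducible HSP110, had 156, 118 and 99.95 CPM against 178, 150.2 and 139 CPM, and the groups overlapped (log2 -0.32, edgeR adjusted p 0.174).

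**Figure D3:**
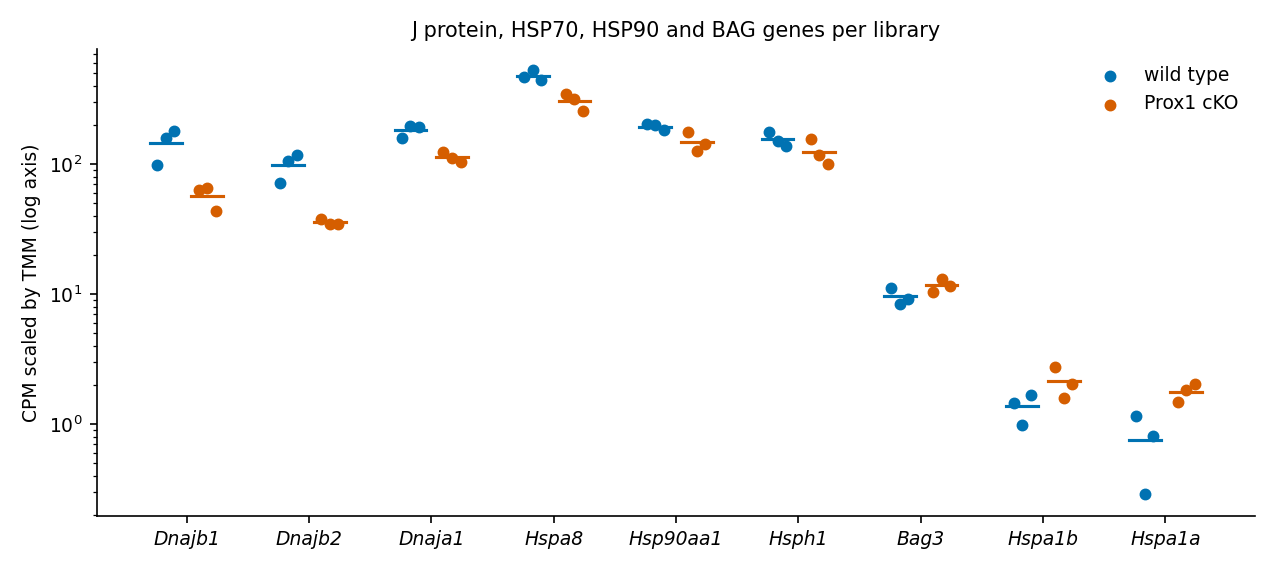
CPM scaled by TMM on a log axis for J protein, HSP70, HSP90, HSP110 and BAG genes, with 1 point per library and a line at the group mean (n = 3). The knockout points of Dnajb1 and Dnajb2 lie below all wild type points, while Hspa1a and Hspa1b are at about 0.3 to 2.8 CPM in all libraries.

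HSP90 genes included the most abundant member and showed small differences. Hsp90ab1, the constitutive cytosolic HSP90, had the highest RPKM of all members in both groups, with medians of 977 in the wild type and 1055 in the knockout. RPKM carries no TMM factor, so its direction between groups can differ from that of CPM. The CPM values of Hsp90ab1 were 2752, 2882 and 2749.5 in knockout lenses against 3439.8, 3305 and 3511 in wild type lenses. The groups did not overlap, yet the gene was not called by edgeR (log2 -0.29, SE 0.120, edgeR adjusted p 0.0926). DESeq2 (log2 -0.30, adjusted p 0.00517) and limma-voom (log2 -0.29, adjusted p 0.0349) called it as falling, and its log2 change was 0.06 under total count scaling (edgeR adjusted p 0.762). Hsp90aa1, the stress-inducible form, had 176, 126 and 142 CPM against 203, 199 and 183 CPM and was just past the threshold (log2 -0.39, edgeR adjusted p 0.0478). That call was lost when any of 5 libraries was left out, with edgeR adjusted p of up to 0.148, and stood only without knockout library 1 (0.00898). It was also lost with upper quartile scaling (0.0739). Hsp90b1, the form of the endoplasmic reticulum, was not called (log2 -0.18, edgeR adjusted p 0.314).

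The cytosolic chaperonin, a double ring known as CCT or TRiC that folds actin and tubulin, fell as a block. Of its 8 ring subunit genes, 7 fell (87.5%) and Cct4 was not called. Among all tested features 16.8% fell, and among those with a mean of at least 10 CPM 21.3%. All 8 subunit genes had every knockout library below every wild type library. That held for 25.7% of all tested features and for 31.7% of those with a mean of at least 10 CPM. The summed level of the 8 genes was 3149.7, 3067 and 2699.8 CPM in knockout lenses against 4268, 5109 and 4714 CPM in wild type lenses. The median log2 change of the 8 was -0.63. The 7 calls were kept whichever library was left out. Subunits of 1 complex are known to be expressed together, so these genes are not separate observations.

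Tcp1, the first named subunit, had the largest decrease of the ring (ENSMUSG00000068039, chromosome 17, 12915701 to 12925067). It measured 429.9, 416 and 401 CPM in knockout lenses against 690.0, 911 and 833 CPM in wild type lenses, a 1.95-fold decrease (log2 -0.96, SE 0.126, edgeR adjusted p 0.00105). Genes on the opposite strand, mainly Acat3, share 14.2% of its exon bases, and their reads could not be separated. Cct3 fell 1.71-fold, Cct8 1.63-fold, Cct7 1.56-fold, Cct2 1.54-fold, Cct5 1.53-fold and Cct6a 1.44-fold, with edgeR adjusted p between 0.00296 and 0.00934. The strand limit also holds for Cct6a (12.5% of exon bases, shared with Psph), Cct8 (6.2%, Usp16) and Cct7 (3.2%, Pradc1). Cct4 had 330.3, 324 and 273 CPM against 351, 369 and 343 CPM (log2 -0.20, SE 0.107, edgeR adjusted p 0.185).

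Tcp1, with the largest decrease of the ring, was also set against Cct4, the only uncalled subunit. The pair was picked after these changes were seen, so a lower ratio in the knockout is not a separate result. The ratio of Tcp1 to Cct4 counts was 1.302, 1.29 and 1.47 in knockout lenses against 1.97, 2.47 and 2.43 in wild type lenses. The ranges were well apart, and no scaling enters this ratio. Per length, Cct2 was the highest subunit in both groups (median 304 RPKM in the wild type and 242 in the knockout) and Cct4 the lowest (73.9 and 84.6 RPKM). These RPKM values are not scaled by TMM, unlike the CPM above. Cct6b, a close relative of Cct6a known from testis, stood at 8.84 ± 0.524 CPM in the wild type and 5.64 ± 1.32 CPM in the knockout (SD, n = 3 each, edgeR adjusted p 0.0443), a call lost when any of 4 libraries was left out (up to 0.124). Cct8l1 had 5 counts in all libraries together and was not tested.

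**Figure D4:**
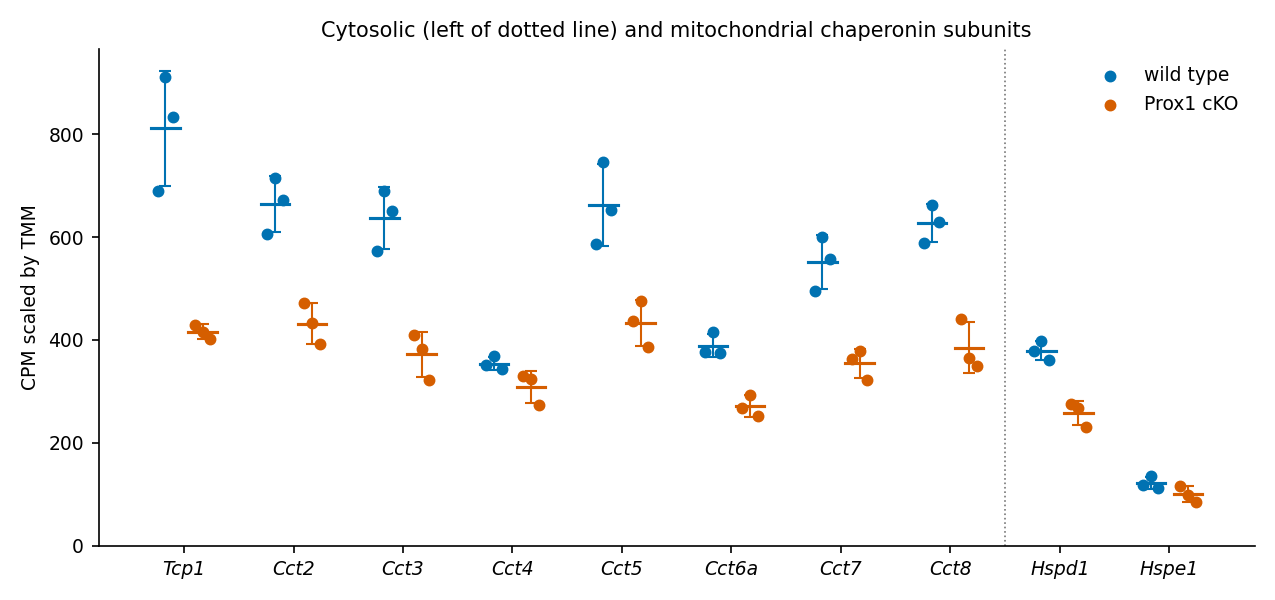
CPM scaled by TMM for the 8 cytosolic chaperonin subunit genes and, right of the dotted line, the mitochondrial chaperonin genes Hspd1 and Hspe1 (points are libraries, lines the mean with SD bars, n = 3). Knockout points lie below all wild type points for each cytosolic subunit and for Hspd1, with the widest gap for Tcp1 and the narrowest for Cct4.

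Mitochondrial chaperone genes were lower in part. Of 8 tested members with known mitochondrial products, 3 fell (Hspd1, Hspa9 and Dnaja3), 0 rose and 5 were not called. The falling share was 37.5%, beside 16.8% of all tested features and 21.3% of those with a mean of at least 10 CPM. None of the 8 rose by the edgeR quasi-likelihood test, adjusted or at an unadjusted p under 0.05. Hspd1, the HSP60 that forms the mitochondrial folding chamber (ENSMUSG00000025980, chromosome 1, 55077835 to 55088243), measured 275, 268 and 231 CPM in knockout lenses against 378, 398 and 360.3 CPM in wild type lenses. This was a decrease of 1.47-fold (log2 -0.56, SE 0.105, edgeR adjusted p 0.00551). Hspe1, the HSP10 that caps that chamber, is transcribed in the opposite direction from the same promoter region (55088132 to 55091307) and had 117, 97.9 and 85.8 CPM against 119, 136 and 113 CPM. Its groups overlapped and it was not called (log2 -0.29, SE 0.1295, edgeR adjusted p 0.120). The exons of the pair share 4.2% of the Hspd1 bases and 7.6% of the Hspe1 bases, where reads without strand could not be assigned. The ratio of Hspd1 to Hspe1 counts was 2.36, 2.73 and 2.69 in knockout lenses against 3.19, 2.93 and 3.20 in wild type lenses, without overlap. Dnajc30 had the smallest change of this list (log2 -0.08).

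Chaperones of the endoplasmic reticulum were lower in part, and those that fell were the J protein genes Dnajc1, Dnajc3 and Dnajb11. Of 9 tested members, 3 fell, 0 rose and 6 were not called, with 0 of them higher at an unadjusted p under 0.05 in edgeR. The falling share was 33.3%, beside 16.8% of all tested features and 21.3% of those with a mean of at least 10 CPM. Dnajc1, a J protein of the reticulum membrane (chromosome 2, 18195654 to 18392830), measured 42.6, 51.9 and 53.4 CPM in knockout lenses against 85.4, 99.1 and 92.4 CPM in wild type lenses, a 1.88-fold decrease (log2 -0.91, SE 0.113, edgeR adjusted p 0.000818). Dnajc3, which binds misfolded proteins and restrains the kinase PERK, had 102, 103 and 96.7 CPM against 148, 169.9 and 157 CPM (1.57-fold, edgeR adjusted p 0.00138), and Dnajb11, a soluble partner of BiP, fell 1.52-fold. Hspa5, which encodes BiP, had 979, 761 and 646 CPM against 911, 821 and 749 CPM, and the groups overlapped widely (log2 -0.06, SE 0.164, edgeR adjusted p 0.810). Hspa13 was not called (log2 0.21, edgeR adjusted p 0.141), nor were Dnajb9 (0.19), Dnajc10 (0.05) and Dnajc25 (-0.22). The ratio of Dnajc3 to Hspa5 counts was 0.105, 0.136 and 0.150 in knockout lenses against 0.162, 0.207 and 0.209 in wild type lenses.

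BAG proteins release nucleotide from HSP70 and link it to degradation or survival pathways. Of 6 tested genes, 3 fell, 0 rose and 3 were not called, and at an unadjusted p under 0.05 edgeR gave 0 higher genes. The falling share was 50%, beside 16.8% of all tested features and 21.3% of those with a mean of at least 10 CPM. Bag6, which guards tail-anchored and misfolded proteins, measured 244, 261 and 265 CPM in knockout lenses against 311, 334 and 349.7 CPM in wild type lenses (log2 -0.37, edgeR adjusted p 0.0197). Bag5 fell by 0.41 (edgeR adjusted p 0.0159) and Bag1 by 0.34 (edgeR adjusted p 0.0378). Bag3, which directs clients to autophagy and is induced by stress, had 10.4, 13.0 and 11.5 CPM against 11.2, 8.42 and 9.21 CPM and was not called (log2 0.27, edgeR adjusted p 0.243). Bag1 lost its call without any 1 of 4 libraries, Bag6 without 3 and Bag5 without 2 of them. The falling BAG genes numbered 1 once knockout library 2 was left out and 0 once wild type library 2 or 3 was.

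Genes that heat shock induces were mixed. Of 11 listed members, 5 fell (Dnajb1, Dnaja1, Hspa8, Hspd1 and Hsp90aa1), 0 rose and 6 were not called. The falling share was 45.5%, beside 16.8% of all tested features and 21.3% of those with a mean of at least 10 CPM. By edgeR 1 of the 11, Hspa1a, had a positive change at an unadjusted p under 0.05. The list's median log2 change was -0.32, within a range from -1.34 for Dnajb1 to 1.19 for Hspa1a. Its summed level was 1371, 1215 and 1066 CPM in knockout lenses against 1707, 1876 and 1721 CPM in wild type lenses.

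Heat shock elements were looked for in RefSeq promoters of build GRCm38.p6, each with 250 bases before and 50 after the start, which listed 70 of the 87 members. A pair of units was GAANNTTC or TTCNNGAA, which read the same on both strands, and a run of 3 units was GAANNTTCNNGAA or its complement TTCNNGAANNTTC. A pair occurred in the promoters of 18 of 70 members (25.7%) and of 17.0% of all 27025 genes in the table, and a run of 3 units in 4 members (5.71%), Hspd1, Hspe1, Hsph1 and Dnajb6, and in 0.662% of all genes. Of the 25 members that fell and had a promoter, 5 held a pair (20%), near the 17.0% of all genes. Of the 31 that were not called 10 did (32.3%). The falling genes Dnajb2, Dnajb1, Tcp1, Dnajc1 and Cct3 had a listed promoter without a pair. The 17 members without a listed promoter do not enter these counts. Among them are Hsf1 and Hsp90ab1 and the falling genes Hsf4, Hspa8, Hspa9 and Hsp90aa1. A match describes these letters and shows no binding. The sequences below show the shared Hspd1 and Hspe1 region, the run of 3 units of Dnajb6, which was not called, and 1 pair each from 3 members that fell and from the stress gene Hspa1a, in capitals the units with the bases between them, read 5′ to 3′ on the strand of the named gene.
Hspe1: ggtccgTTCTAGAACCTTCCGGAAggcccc
Dnajb6: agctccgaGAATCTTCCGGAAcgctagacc
Cct2: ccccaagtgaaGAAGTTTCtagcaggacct
Cct5: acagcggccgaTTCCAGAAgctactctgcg
Dnaja1: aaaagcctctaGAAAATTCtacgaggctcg
Hspa1a: cgaaactgctgGAAGATTCctggccccaag

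The Hspe1 window (chr1:55088053-55088082, plus strand) holds 4 units in a row, from 89 to 72 bases before its start. It lies between the Hspe1 start and an Hspd1 start 215 bases apart, and overlaps an annotated exon of a longer Hspd1 transcript. Hspd1, which fell, and Hspe1, which was not called, share this run. The Dnajb6 window (chr5:29735844-29735873, plus strand) holds 3 units and overlaps annotated exons of Dnajb6 and of Gm5129. Dnajb6, a suppressor of protein aggregation, measured 10.5, 9.85 and 13.0 CPM in knockout lenses against 12.3, 12.8 and 9.38 CPM in wild type lenses (log2 -0.05, edgeR adjusted p 0.835). The Cct2 window (chr10:117063399-117063428, minus strand) lies outside annotated exons. The Cct5 window (chr15:31601862-31601891, minus strand) overlaps an exon of Fam173b. The Dnaja1 window (chr4:40722333-40722362, plus strand) overlaps exons of a longer Dnaja1 transcript and of Gm6297. Whether the units themselves are exonic in these windows was not tested. The Hspa1a window (chr17:34972242-34972271, minus strand) lies outside exons and is identical, letter for letter, to that of Hspa1b.

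Co-chaperones outside the named families followed a similar course. Of 44 tested genes on a list of HSP90 and HSP70 partners, prefoldin subunits and tubulin folding cofactors, 14 fell, 2 rose and 28 were not called, with a median log2 change of -0.23. Tbcb, a tubulin folding cofactor, had the largest decrease (64.0, 57.5 and 50.03 CPM in knockout lenses against 88.4, 119 and 118 CPM in wild type lenses, log2 -0.92, edgeR adjusted p 0.00227). The HSP70 partner gene St13 fell by 0.52 and Sil1, the exchange factor for BiP, by 0.56, while the HSP90 partner gene Fkbp5 rose by 0.39 and the chaperonin partner gene Pdcl3 by 0.40. The falling share of this list was 31.8%, beside 16.8% of all tested features and 21.3% of those with a mean of at least 10 CPM.

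The decrease had the same library pattern as that of other falling genes. In CPM scaled by TMM, wild type library 1, which held the least crystallin of its group, was the lowest wild type library for 27 of the 32 falling members (84.4%). The same held for 85.9% of all falling features and for 38.0% of all tested features. This order depends on the TMM factors, which were 0.984 in wild type library 1 and 0.843 and 0.835 in libraries 2 and 3. In RPKM, library 1 was still the lowest for Hsf4, Dnajb2, Dnajb1, Dnaja1, Dnajc6 and Tcp1. It was the highest in RPKM for other falling members, such as Bag6, Hspa4 and Hspa9. Each of the 32 had all knockout libraries below all wild type libraries, beside 25.7% of all tested features and 31.7% of those with a mean of at least 10 CPM. The 32 were called from these same values, so this is not a separate result. Of the 32 calls, 20 were kept whichever library was left out, among them Hsf4, Dnajb2, Dnajb1, Dnaja1, Hspa8, Hspd1 and the 7 chaperonin ring subunits. Without wild type library 2 there were 20 falling and 0 rising members, and without wild type library 3 there were 21 and 0. Among all features 2267 and 2475 were then called, against 4659 with all libraries.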

How the data were processed

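Raw counts, CPM and RPKM per feature were deposited by the authors for each library; poly(A)-selected libraries from a TruSeq kit that does not mark strand were read as single-end 51 bp reads, per the labels' protocols. The CPM values deposited equal counts scaled by library totals (within 1e-06), except in 26 features whose counts and CPM disagree, which were left out and include no member. RPKM as deposited by the authors, which carries no TMM factor, was used for levels, order and shares between genes. Build GRCm38 and edgeR are named in the submitters' processing notes; the aligner, counting program and gene models used for the counts are not stated in the sources used here.

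In R 4.3.3, filterByExpr (minimum count 10) chose the features to test, TMM scaled the libraries, and the quasi-likelihood test of edgeR 4.0.16 compared the genotypes with no further term. Benjamini-Hochberg adjustment ran over all 14271 tested features, and calls needed an adjusted p under 0.05. DESeq2 1.42.0, limma-voom (limma 3.58.1), other scalings, other filters, a replicate block and leaving out each library were alternatives. The tests were tested on simulated data. Coordinates and exon overlaps came from GENCODE release M21 of GRCm38 and promoters from RefSeq. A count of 3 corresponds to 0.106 to 0.330 CPM. Described individually were all Hsf and chaperonin genes, the 10 largest falls and rises whose groups did not overlap and whose higher group averaged 1 CPM or more, the 10 highest wild type RPKM values and the extremes of each list. Dnajb6, Hspe1, the other uncalled genes and the ratios were picked after their values were seen. The members and lists were chosen with earlier results of these data known.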

Additional observations from a re-analysis of the deposited data

How the results depend on the processing

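Hsf4 fell and passed the threshold under every alternative run. Members falling numbered 32 as reported and between 20 and 32 without 1 library, members rising 2 and between 0 and 3, members changed 34 and between 20 and 33, and all features changed 4659 and between 2267 and 5317. Total count scaling gave 19 members changed, 13 rising and 6 falling, and no filter gave 1 rising. Under total count scaling the log2 change of 30 tested members turned positive, 3 of them members that fell under TMM. Of the genes followed through all alternatives these were Cct4 (0.16), Dnajc30 (0.28), Hsf1 (0.24), Hsf2 (0.34), Hsp90ab1 (0.057), Hsp90b1 (0.17) and Hspa5 (0.29), none of these 7 called by edgeR under either scaling. DESeq2 and limma-voom called Hsp90ab1 as falling. Hsf2, whose change was close to 0, was also positive with limma-voom (0.00068), with upper quartile scaling (0.041) and without knockout library 2 (0.0027) or 3. Without 1 library it ranged from -0.099 to 0.063, and Hspa5 from -0.23 to 0.075, the latter without knockout library 3. The scaling by total counts moves every gene by nearly the same amount, which its construction shows. For other moved counts the cause was not tested. TMM factors without crystallin genes left 32 falling and 2 rising. With the replicate number as a block, 29 members fell (28 of the 32), 2 rose, and 4176 features changed. Same-numbered libraries correlated in their deviations from the group means by -0.03, 0.25 and 0.11, and differently numbered ones by -0.22 to 0.09. These values do not settle whether the numbers mark pairs. Nothing in the labels says that a number marks a shared litter or day, so the main fit did not take the numbers as pairs. Members with too few counts to be tested, such as Hsf5 and Hspa1l, could not be compared at this depth.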
